A study of Mus musculus with 31 samples.

Results

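The protocadherins and cadherins are calcium-dependent adhesion proteins of the cell surface. Every array feature that the probe annotation gives a single symbol beginning with Pcdha, Pcdhb, Pcdhg or Pcdh and a number, or reading Cdh and a number, was taken, which gave 51 features for 50 genes among 16345 features in all. The clustered protocadherins among them were 23 features for 22 genes, Pcdhb1 to Pcdhb22, with Pcdhb11 measured by 2 features. They were all of the beta cluster, since 0 features carried a Pcdha symbol and 0 a Pcdhg symbol. The other 28 were 9 protocadherins outside the clusters and 19 cadherins.

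The study profiled RNA bound to ribosomes of mouse brain cells that express the dopamine receptor Drd1a or Drd2, taken from whole cortex or from striatum by translating ribosome affinity purification, a pull-down of tagged ribosomes from 1 labelled cell type. Its 31 arrays fall into 8 groups: cortex Drd1a, cortex Drd2, striatum Drd1a and striatum Drd2 cells, each from young mice of 6 weeks and from old mice of 2 years. Each group holds 4 arrays, except young striatum Drd1a with 3. The stated purpose was the comparison of old with young cells of each kind. The labels record no treatment in any group, and they name the cells by receptor alone, with no strain, transgene, sex or number of mice per sample. They do not say that replicates came from separate mice, so every p-value here reflects variation among these samples, which may be technical.

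A clustered protocadherin gene is read from its own promoter within a long array of similar neighbours, and each neuron uses a few of them. The proteins bind like with like between cells and give neighbouring neurons different surface identities. Classical cadherins, such as N-cadherin (Cdh2) and the type II cadherins (Cdh6, Cdh7, Cdh8, Cdh10, Cdh11, Cdh12, Cdh20), join cells through matching ectodomains and hold to the actin skeleton through catenins. Their combinations differ between brain regions and neuron classes.

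Values are log2 relative to each feature's median over the 31 arrays, so they show differences between groups and not the level of a gene. A feature was called when its adjusted p was under 0.05 (limma, Benjamini-Hochberg over all 16345 features) and its difference reached 1.2-fold, the thresholds the submitters name. Since whole samples were measured, fewer cells that use a gene and less of its RNA per cell cannot be told apart. The beta protocadherins are similar in sequence, so signal may be shared between them and single members are uncertain. The number of arrays limits the precision, and the median residual SD between replicates was 0.243 for the clustered features, 0.147 for the other members and 0.142 for all features.

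The receptors that define the groups were as labelled, and 8 of 8 direct-pathway markers were higher and 3 of 3 measured indirect-pathway markers lower in Drd1a than in Drd2 cells in each region at each age. Drd2 lay between -4.87 and -2.90 in the Drd1a arrays and between 0 and 0.64 in the Drd2 arrays. Drd1 lay between 0.07 and 1.86 in the Drd1a arrays. In the Drd2 arrays of striatum it lay between -3.13 and -2.50 when young and between -0.58 and 0 when old, and in those of cortex between -2.93 and -2.87 when young and between -1.90 and -0.76 when old. Array medians ran from -0.07 to 0.13, with 6 arrays over 0.05. Since values are centred per feature, no marker can be called absent from them.

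**Figure D1:**
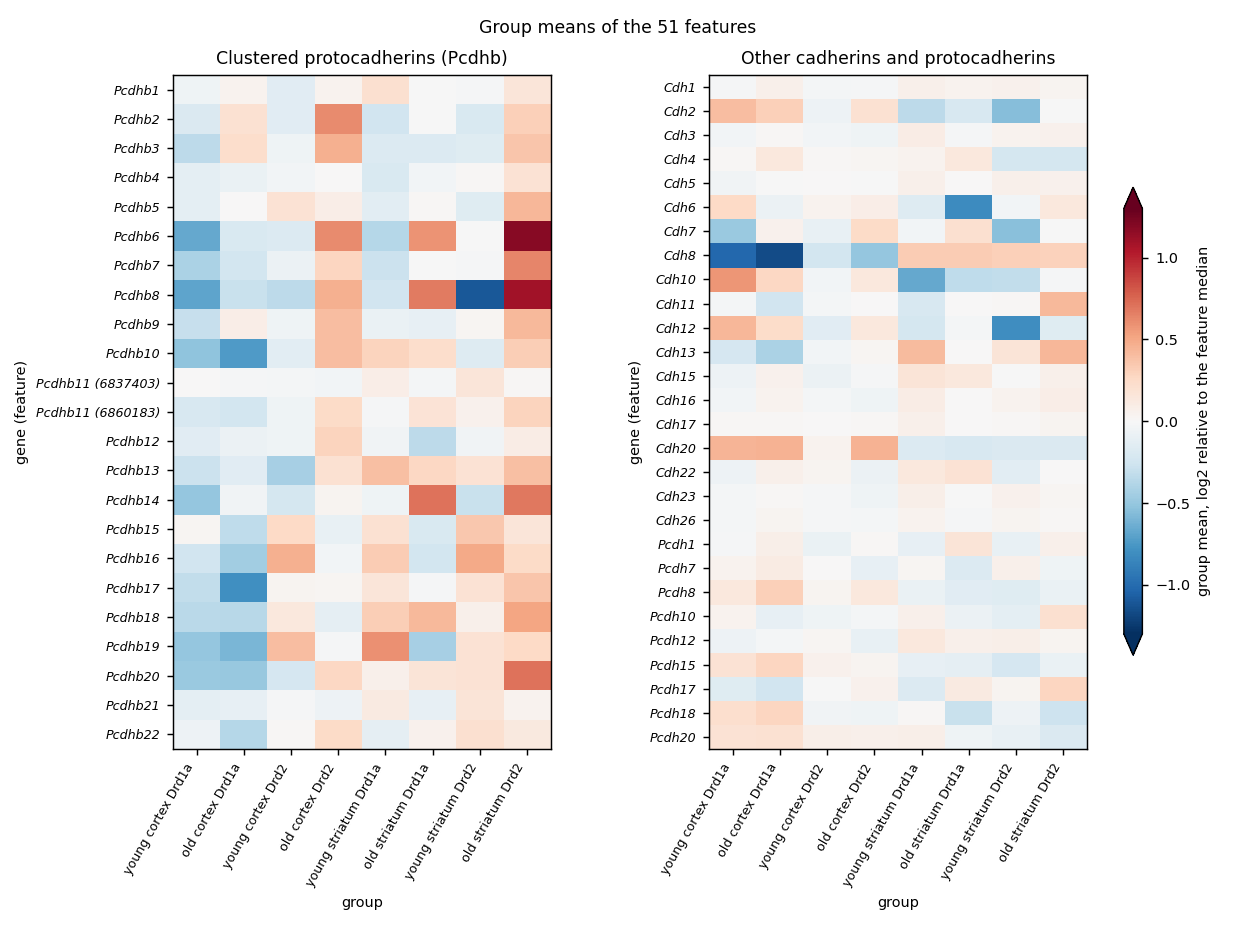
Mean of each group (columns) for each of the 51 features (lines of cells), as log2 relative to the feature's median, for the 23 clustered features on the left and the 28 other members on the right. Pcdhb8 and Pcdhb6 had the widest range of group means among the clustered features, at 2.19 and 1.85, and Cdh8 among the others, at 1.49.

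Old striatal Drd2 cells carried more RNA of 7 of the 23 clustered features than young ones, and less of none. Pcdhb8 rose 4.55-fold, Pcdhb6 2.28-fold and Pcdhb14 1.97-fold. Pcdhb7, Pcdhb5, Pcdhb20 and Pcdhb3 rose by 0.64, 0.59, 0.52 and 0.52 on the log2 scale. All are cell-surface protocadherins of the beta cluster. Of all 16345 features, 5.7% were called in this comparison, 2.72% higher and 2.98% lower in old cells. The median difference was 0.23 over the clustered features and -0.01 over all features.

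Pcdhb8 stood at -1.54, -0.62, -1.03 and -1.21 in the young striatal Drd2 arrays and at 0.89, 1.35, 0.92 and 1.19 in the old ones. The old arrays all lay above 0 and the young arrays all below it, with no overlap. The difference was 2.19 ± 0.28 (SE; adjusted p = 9e-06). Pcdhb6 stood at -0.09, 0.05, 0.00 and 0.01 in young and at 1.20, 1.16, 0.96 and 1.41 in old arrays. These groups did not overlap either, and they differed by 1.19 ± 0.18 (adjusted p = 0.00015). Pcdhb14 went from -0.28, -0.08, -0.43 and -0.39 to 0.55, 0.47, 1.00 and 0.71, a difference of 0.98 ± 0.12 (adjusted p = 6.3e-06). Each old array lay above each young array.

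Pcdhb5 went from -0.06, -0.18, -0.25 and -0.15 to 0.74, 0.20, 0.37 and 0.40 and also showed no overlap (0.59 ± 0.11, adjusted p = 0.00086). The old and young arrays overlapped for Pcdhb7 (adjusted p = 0.044), Pcdhb20 (adjusted p = 0.046) and Pcdhb3 (adjusted p = 0.043). These 3 calls were lost when 5, 6 and 5 of the 8 arrays were left out in turn, with adjusted p up to 0.19, 0.19 and 0.17. The calls of Pcdhb8, Pcdhb6, Pcdhb14 and Pcdhb5 held whichever array was left out. Fitting only the 2 groups compared called 7 members in place of 12, and the calls of Pcdhb7, Pcdhb20 and Pcdhb3 were among those lost. Over all features the same fit called 469 in place of 932.

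Markers of other cells moved in the same arrays. Of 8 direct-pathway neuron markers, 6 were higher in old striatal Drd2 arrays, and their mean went from between -1.38 and -1.18 to between -0.29 and -0.05. Of 8 astrocyte markers 4 were higher, with the mean going from between -0.68 and -0.43 to between -0.30 and -0.05, and of 8 oligodendrocyte markers 1 was higher. Their part in the protocadherin differences was not tested.

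**Figure D2:**
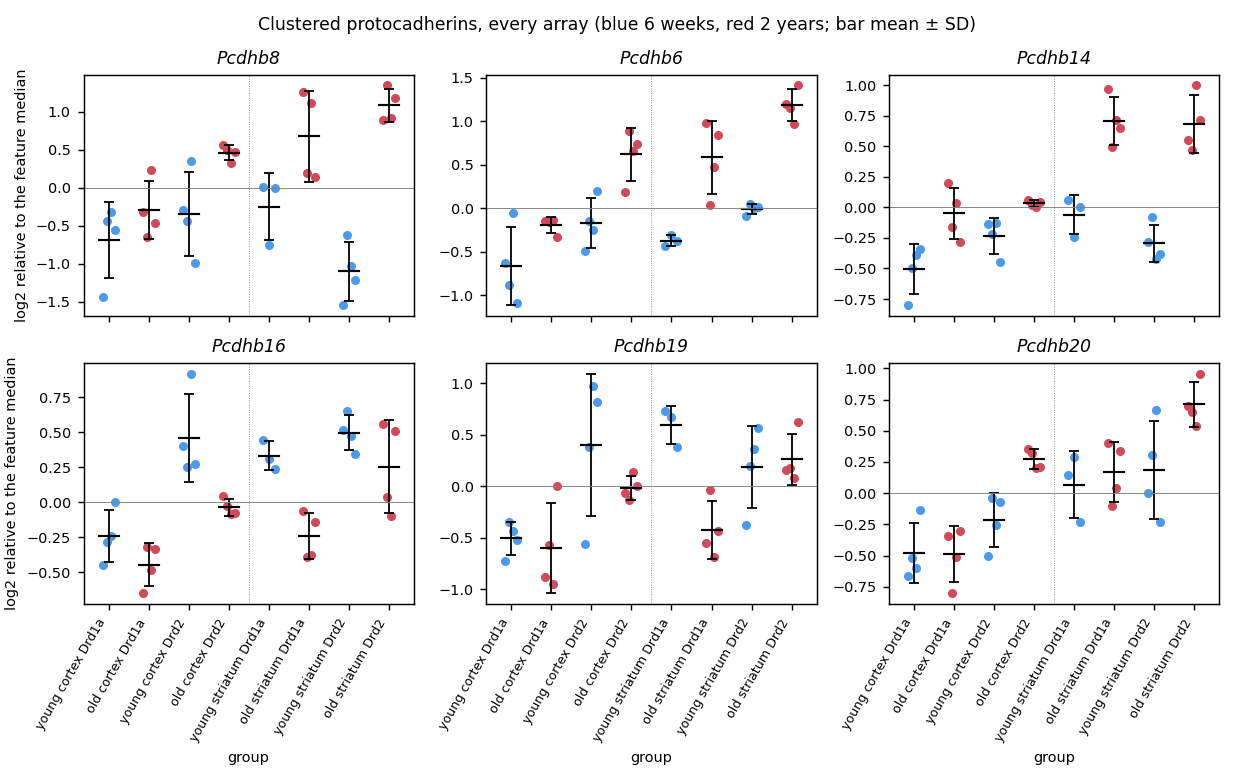
Every array as a point for 6 clustered protocadherins (blue 6 weeks, red 2 years; bars mean ± SD, n = 4 arrays a group and 3 in young striatum Drd1a), as log2 relative to the feature's median. The 4 old striatal Drd2 arrays of Pcdhb8 sit between 0.89 and 1.35, above the 4 young ones between -1.54 and -0.62.

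In striatal Drd1a cells 4 of the 23 clustered features changed with age, 2 up and 2 down, where 3.43% of all features were called (1.58% higher and 1.85% lower). Pcdhb6 stood at -0.44, -0.31 and -0.38 in young arrays and at 0.98, 0.04, 0.48 and 0.85 in old ones (0.96 ± 0.20, adjusted p = 0.0061). Pcdhb14 went from 0.06, -0.24 and 0.00 to 0.97, 0.50, 0.71 and 0.65 (0.77 ± 0.13, adjusted p = 0.0012). Old and young arrays did not overlap for either gene. Pcdhb19 fell, from 0.73, 0.67 and 0.38 to -0.55, -0.04, -0.69 and -0.43 (-1.02 ± 0.26, adjusted p = 0.023). Pcdhb16 fell from 0.44, 0.31 and 0.24 to -0.06, -0.39, -0.38 and -0.14 (-0.57 ± 0.15, adjusted p = 0.025). Every old array of both lay below every young one. The falls of Pcdhb19 and Pcdhb16 lost the call when 4 and 5 of the 7 arrays were left out in turn, with adjusted p up to 0.13 and 0.15, while the rises of Pcdhb6 and Pcdhb14 held each time. Fitting only the 2 groups compared left 3 of the 6 member calls of this comparison, and those of Pcdhb6 and Pcdhb16 were among the lost. Over all features the same fit called 73 in place of 561. Among the markers in these arrays, 1 of 3 measured indirect-pathway markers was called higher in old cells, Penk by 0.38 (adjusted p = 0.018), with list means between -2.02 and -1.31 when young and between -1.52 and -1.27 when old. Of 8 direct-pathway, 8 astrocyte and 8 oligodendrocyte markers, 0 were called by limma, and their part in the differences was not tested.

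Pcdhb8 in these cells stood at 0.01, -0.75 and 0.00 when young and at 1.26, 0.19, 1.12 and 0.14 when old. The groups did not overlap, but the difference of 0.93 ± 0.30 missed the threshold (adjusted p = 0.084). The age difference of Pcdhb8 in striatal Drd1a cells minus that in striatal Drd2 cells was -1.26 ± 0.41 and was not called (adjusted p = 0.42).

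In cortical Drd2 cells 3 of the 23 clustered features changed with age, 2 up and 1 down, where 3.63% of all features were called (1.85% higher and 1.78% lower). Pcdhb6 stood at -0.49, -0.15, -0.25 and 0.20 in young arrays and at 0.18, 0.89, 0.66 and 0.74 in old ones (0.79 ± 0.18, adjusted p = 0.014). The highest young array lay just above the lowest old one. Pcdhb2 went from -0.53, -0.15, -0.26 and 0.38 to 1.11, 0.70, 0.64 and 0.02, again with an overlap (0.76 ± 0.18, adjusted p = 0.017). Pcdhb16 fell from 0.40, 0.25, 0.92 and 0.27 to 0.05, -0.02, -0.09 and -0.08, with no overlap (-0.49 ± 0.14, adjusted p = 0.036). Among fits without 1 array, the Pcdhb6 call was lost in that without old replicate 2, at an adjusted p of 0.056. All 4 member calls of this comparison were lost when only the 2 groups compared entered the fit. Over all features that last fit called 55 in place of 594. The calls of Pcdhb2 and Pcdhb16 were lost without 4 and 6 of the 8 arrays, with adjusted p up to 0.12 and 0.17.

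In these cortical arrays 4 of 8 direct-pathway markers were higher in old cells, their mean going from between -1.19 and -1.01 to between -0.54 and -0.32. Astrocyte markers were higher for 3 of 8, their mean going from between -0.19 and 0.12 to between 0.19 and 1.00, and oligodendrocyte markers for 3 of 8. Their part in the differences was not tested.

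In cortical Drd1a cells 0 of the 23 clustered features passed the limma test, where 0.453% of all features were called (0.214% higher and 0.239% lower). At an unadjusted p under 0.05 there were 6. That level is looser than the one behind the 0.453%, and no share of all features is given at it. Pcdhb14 stood at -0.80, -0.50, -0.39 and -0.34 in young and at 0.20, -0.16, 0.04 and -0.28 in old arrays. These did not overlap, and the difference of 0.46 ± 0.12 had an adjusted p of 0.09. Pcdhb6 differed by 0.47 ± 0.18 (adjusted p = 0.35).

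Over the 4 age comparisons, which share no arrays, Pcdhb6 was called higher in 3 and had a positive sign in the fourth. At least 3 calls the same way were found for 0.673% of all features. The sign of the age difference was the same in all 4 comparisons for 10 of the 23 clustered features, positive for 7 and negative for 3. It was the same for 2 of the 28 other members and for 26.6% of all features. The 7 positive ones were Pcdhb2, Pcdhb3, Pcdhb4, Pcdhb6, Pcdhb7, Pcdhb8 and Pcdhb14, and the 3 negative ones Pcdhb15, Pcdhb16 and the first Pcdhb11 feature (6837403). Tests of whether an age difference itself differed between cell types or regions called 0 of the 23 clustered features. Of all features they called 0.104% in cortex, 0.0734% in striatum, 0% in Drd1a cells and 0.0184% in Drd2 cells. With an unadjusted p under 0.05 they held 4 clustered features in cortex, 5 in striatum, 4 in Drd1a cells and 4 in Drd2 cells. No share of all features is given at that level, so these counts are not read as an excess. In striatum the age difference in Drd1a minus that in Drd2 cells was positive for 2 of the 23 clustered features. Its median was -0.34 over the clustered features and -0.03 over all features. In cortex these medians were -0.09 and 0.06.

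**Figure D3:**
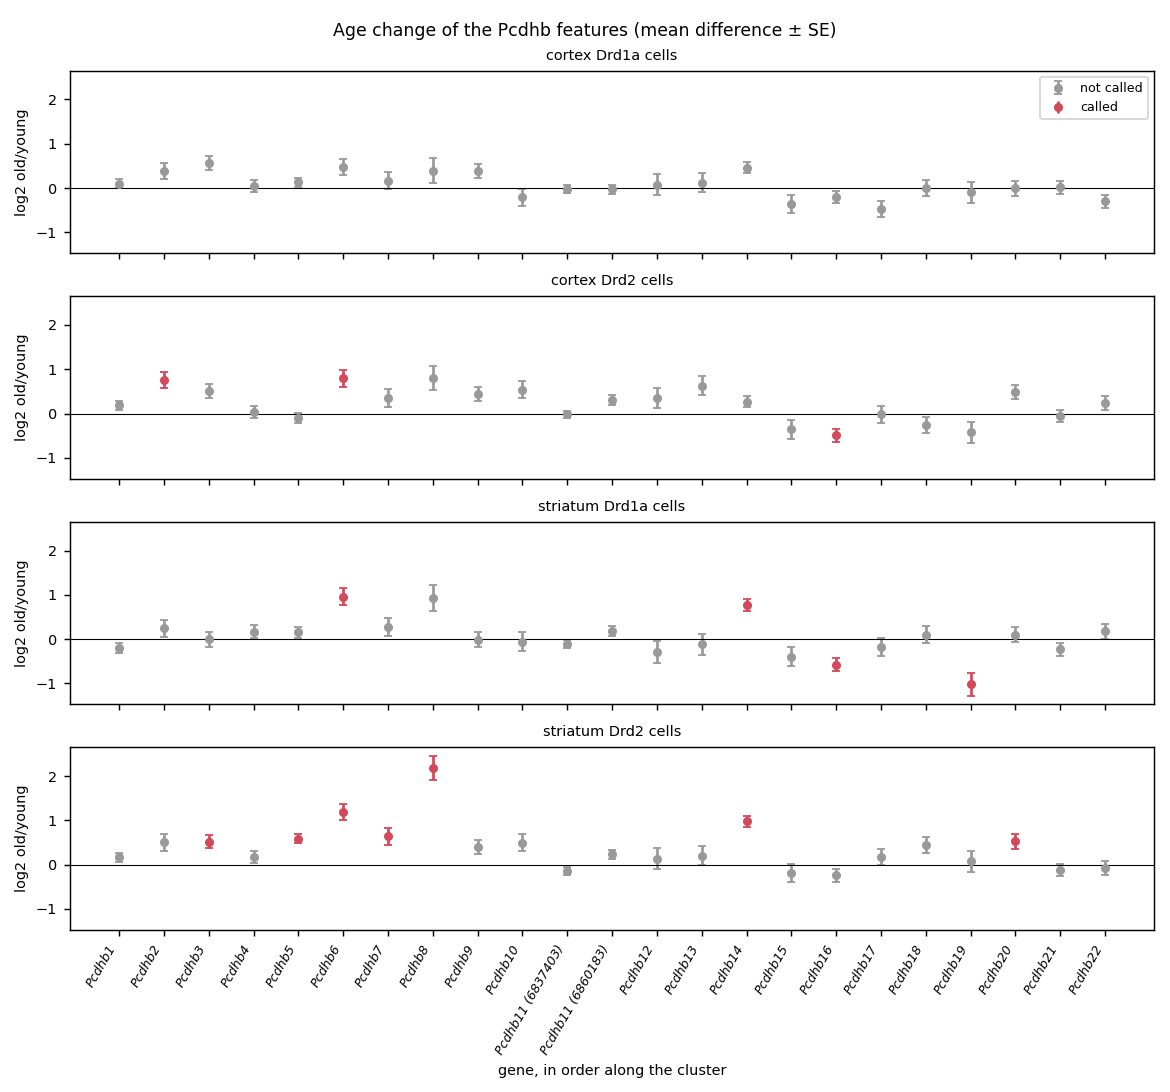
Old minus young log2 difference (points, ± SE) for each clustered feature, in the order of the genes along chromosome 18, in 4 panels for the 4 kinds of cell. Red marks called and grey uncalled features, and in striatal Drd2 cells 7 are called, all above 0, and the tallest is Pcdhb8 at 2.19.

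Drd1a and Drd2 cells of old cortex differed in 6 of the 23 clustered features, all lower in Drd1a cells, where 6.48% of all features were called (3.82% higher and 2.66% lower). The median difference was -0.36 over the clustered features and 0.06 over all. Pcdhb10 stood at -0.60, -0.89, -0.61 and -0.83 in Drd1a arrays and at 0.23, 0.52, 0.07 and 0.78 in Drd2 arrays (-1.13 ± 0.19, adjusted p = 0.00027). Pcdhb17 ran from -0.93 to -0.66 against -0.11 to 0.21 (-0.82 ± 0.19, adjusted p = 0.0062). Pcdhb6 ran from -0.34 to -0.14 against 0.18 to 0.89 (-0.82 ± 0.18, adjusted p = 0.0054). The Drd1a arrays of all 3 lay wholly below the Drd2 arrays. Pcdhb20 differed by -0.76, Pcdhb22 by -0.62 and the second Pcdhb11 feature (6860183) by -0.49, all with no overlap. The call of Pcdhb22 was lost without Drd1a replicate 1 or Drd2 replicate 2, at adjusted p up to 0.054, and the other 5 held whichever array was left out.

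In young cortex 2 of the 23 were lower in Drd1a cells and none was higher, where 12% of all features were called (6.67% higher and 5.3% lower). The median difference was -0.26 over the clustered features and -0.01 over all. Pcdhb16 stood at -0.45, -0.29, -0.24 and 0.00 in Drd1a arrays and at 0.40, 0.25, 0.92 and 0.27 in Drd2 arrays (-0.70 ± 0.14, adjusted p = 0.00046). These groups were apart. Pcdhb19 stood at -0.72, -0.34, -0.43 and -0.52 against -0.56, 0.38, 0.97 and 0.82, with Drd2 replicate 1 among the Drd1a arrays (-0.91 ± 0.24, adjusted p = 0.0088). Without Drd2 replicate 3 this call was lost, at an adjusted p of 0.06.

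Other markers also separated the cortical groups. Cortical excitatory markers were higher in Drd1a arrays for 6 of 7 in young and 4 of 7 in old cortex, with list means between 1.41 and 1.51 against 0.25 and 0.57 when young and between 0.99 and 1.26 against 0.05 and 0.64 when old. Markers of striatal projection neurons in general were lower for 6 of 6 and 5 of 6, with means between -1.22 and -0.68 against -0.01 and 0.19 when young and between -0.78 and -0.51 against -0.22 and 0.03 when old. Astrocyte markers were higher for 6 of 8 and 2 of 8, and oligodendrocyte markers were lower for 4 of 8 at both ages, with means between -0.54 and -0.45 against -0.16 and 0.04 when young and between -0.20 and 0.12 against 0.14 and 0.77 when old. Of 8 interneuron markers, 2 were higher and 3 lower in Drd1a cells when young, and 3 were higher when old. The median difference over the 8 was 0.20 when young and 0.39 when old. The list split both ways when young, so no single marker is named from it. The part of these cells in the differences was not tested.

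In old striatum 2 of the 23 were lower in Drd1a cells, where 2.81% of all features were called (1.63% higher and 1.18% lower). The median difference was -0.35 over the clustered features and -0.02 over all, so the lean seen in old cortex was also present here. Pcdhb16 stood at -0.06, -0.39, -0.38 and -0.14 against 0.56, 0.04, -0.10 and 0.51 in Drd2 arrays (-0.49 ± 0.14, adjusted p = 0.042). Pcdhb5 stood at 0.21, 0.02, -0.05 and -0.13 against 0.74, 0.20, 0.37 and 0.40 (-0.42 ± 0.11, adjusted p = 0.026). The groups overlapped for both, and the calls were lost without 5 and 3 of the 8 arrays, at adjusted p up to 0.17 and 0.13. In young striatum 0 of the 23 passed the limma test, where 3.05% of all features were called (1.68% higher and 1.37% lower). At an unadjusted p under 0.05, a looser level with no share of all features given, there were 2. One of these was Pcdhb8, higher in Drd1a arrays by 0.85 ± 0.30 (adjusted p = 0.14). The median difference in young striatum was -0.05 over the clustered features and 0.02 over all.

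Between regions, the clustered protocadherins that differed were mostly lower in cortex. In young Drd1a cells 7 of 23 were lower and none higher, where 19% of all features were called (9.1% higher and 9.94% lower). Pcdhb19 ran from -0.72 to -0.34 in cortex and from 0.38 to 0.73 in striatum (-1.10 ± 0.26, adjusted p = 0.002), with no overlap. Pcdhb10 differed by -0.81, Pcdhb18 by -0.68, Pcdhb13 by -0.67, Pcdhb16 by -0.58 and Pcdhb20 by -0.55, and Pcdhb20 alone of these 5 had overlapping arrays. The calls of Pcdhb13 and Pcdhb20 were each lost without 4 of the 7 arrays, at adjusted p up to 0.19 and 0.13, and that of Pcdhb18 without striatal replicate 3, at 0.073.

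In old Drd1a cells 8 of 23 were lower in cortex and none higher, where 16.1% of all features were called (8.8% higher and 7.32% lower). Pcdhb10 ran from -0.89 to -0.60 in cortex and from -0.17 to 0.46 in striatum (-0.97 ± 0.19, adjusted p = 0.00041), and the groups were apart. Pcdhb8 ran from -0.64 to 0.24 against 0.14 to 1.26, with an overlap (-0.97 ± 0.28, adjusted p = 0.012), and lost the call without 3 of the 8 arrays (adjusted p up to 0.07). Pcdhb18, Pcdhb6, Pcdhb17 and Pcdhb14 differed by -0.78, -0.78, -0.78 and -0.76 and kept their calls whichever array was left out.

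In old Drd2 cells 4 of 23 were lower in cortex, where 11.3% of all features were called (6.31% higher and 5.04% lower): Pcdhb14 by -0.65, Pcdhb18 by -0.63, Pcdhb6 by -0.56 and Pcdhb5 by -0.34. Pcdhb14 lay between 0 and 0.06 in the cortical arrays and between 0.47 and 1.00 in the striatal ones (adjusted p = 0.00043). The call of Pcdhb18 was lost without cortical replicate 1 or striatal replicate 4, at adjusted p up to 0.055, and those of Pcdhb6 and Pcdhb5 without 5 and 6 of the 8 arrays, at adjusted p up to 0.16 and 0.15. In young Drd2 cells, where 7.58% of all features were called (4.57% higher and 3.01% lower), the call in the cluster was Pcdhb5, higher in cortex by 0.35 ± 0.11 (adjusted p = 0.041) and lost without 6 of the 8 arrays (adjusted p up to 0.16). The old and young region comparisons use the same old and young arrays as the age comparisons, so they are not separate evidence.

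Taken as a whole, the clustered features did not vary as a block within groups, though some of them varied together. Over 31 arrays, the correlation of deviations from the group means had a median of 0.05 over 253 pairs of clustered features and ran from -0.61 to 0.68. For Pcdhb8 and Pcdhb14 it was 0.61. For Pcdhb17 it was 0.59 with Pcdhb9, 0.59 with Pcdhb13, 0.55 with Pcdhb18 and 0.54 with Pcdhb16. The lowest, -0.61, was that of the first Pcdhb11 feature with Pcdhb20. For the Pcdhb11 pair of features it was -0.01, and only the second of that pair was ever called. These arrays share array-wide shifts, so the values describe the arrays. Never called in any of the 16 comparisons were 7 clustered features: Pcdhb1, Pcdhb4, Pcdhb9, Pcdhb12, Pcdhb15, Pcdhb21 and the first Pcdhb11 feature.

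Among the other members, the type II cadherins Cdh8, Cdh10 and Cdh20 each differed between cortex and striatum in at least 2 region comparisons. This did not set them apart, since Cdh2, Cdh6, Cdh7, Cdh12, Cdh13 and Pcdh15 did so too. Of the 50 member genes, 17 had a promoter in the RefSeq table and 0 of these were clustered. The 250 bases before the start of Cdh8, Cdh10 and Cdh20 are shown (RefSeq, GRCm38.p6), since these 3 genes separate the regions in opposite directions: Cdh8 at chr8:99416472-99416721 on the minus strand, Cdh10 at chr15:18820079-18820328 and Cdh20 at chr1:104768270-104768519, both on the plus strand. Each is written 5′ to 3′ along the gene, and capitals mark a GC box (GGGCGG).
Cdh8: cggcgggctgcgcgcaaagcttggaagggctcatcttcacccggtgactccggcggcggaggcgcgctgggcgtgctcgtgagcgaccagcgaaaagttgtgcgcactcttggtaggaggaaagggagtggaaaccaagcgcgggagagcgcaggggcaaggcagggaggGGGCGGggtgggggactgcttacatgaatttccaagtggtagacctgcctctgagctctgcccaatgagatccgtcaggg
Cdh10: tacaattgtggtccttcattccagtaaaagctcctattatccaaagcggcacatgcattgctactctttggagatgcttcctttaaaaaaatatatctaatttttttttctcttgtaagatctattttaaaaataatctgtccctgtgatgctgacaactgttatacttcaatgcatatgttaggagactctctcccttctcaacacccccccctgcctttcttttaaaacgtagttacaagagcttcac
Cdh20: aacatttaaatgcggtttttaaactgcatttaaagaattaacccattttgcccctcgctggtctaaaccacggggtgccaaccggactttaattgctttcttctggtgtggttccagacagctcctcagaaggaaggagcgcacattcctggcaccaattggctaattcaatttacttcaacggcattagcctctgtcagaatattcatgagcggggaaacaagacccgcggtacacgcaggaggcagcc
On either strand, a GC box was in the window of Cdh8 and not in the others, and 32.7% of 32851 promoter windows of the same length hold one. A TATA box (TATAAA, in 12.4% of the windows) and an E box (CACGTG, in 6.02%) were in none of the 3. The windows held 20, 2 and 10 CG dinucleotides for Cdh8, Cdh10 and Cdh20, against a median of 6 over all windows. A match is a description of these letters and not a binding site.

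Cdh8 was lower in cortex than in striatum in all 4 region comparisons. In young Drd1a cells it stood at -1.36, -1.19, -0.84 and -0.71 in cortex and at 0.45, 0.38 and 0.15 in striatum, a difference of -1.35 ± 0.16 (adjusted p = 1.4e-07). In old Drd1a cells it stood at -1.02, -1.33, -0.99 and -1.29 against 0.60, 0.05, 0.25 and 0.40, a difference of -1.49 ± 0.14 (adjusted p = 8.3e-09). Neither pair of groups overlapped. In Drd2 cells the differences were -0.54 ± 0.14 when young (adjusted p = 0.015) and -0.80 ± 0.14 when old (adjusted p = 0.00033), again with no overlap. The young Drd2 call was lost without cortical replicate 1 or striatal replicate 1 or 2, at adjusted p up to 0.087.

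Cdh10 stood at 0.48, 0.52, 0.46 and 0.83 in young cortical Drd1a arrays and at -0.61, -0.72 and -0.65 in striatal ones. Cortex was higher by 1.23 ± 0.13 with no overlap (adjusted p = 3.3e-08). In old Drd1a cells the difference was 0.60 ± 0.12 (adjusted p = 0.00053). In Drd2 cells it was 0.28 when young (adjusted p = 0.17) and 0.15 when old (adjusted p = 0.47), neither called.

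Cdh20 stood at 0.25, 0.48, 0.57 and 0.52 in old cortical Drd1a arrays and at -0.17, -0.04, -0.36 and -0.27 in striatal ones. Cortex was higher by 0.67 ± 0.11 (adjusted p = 6.6e-05), and it was higher by 0.61 in young Drd1a and 0.63 in old Drd2 cells. Arrays did not overlap in any of these 3 comparisons. In young Drd2 cells the difference of 0.24 was not called (adjusted p = 0.24).

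**Figure D4:**
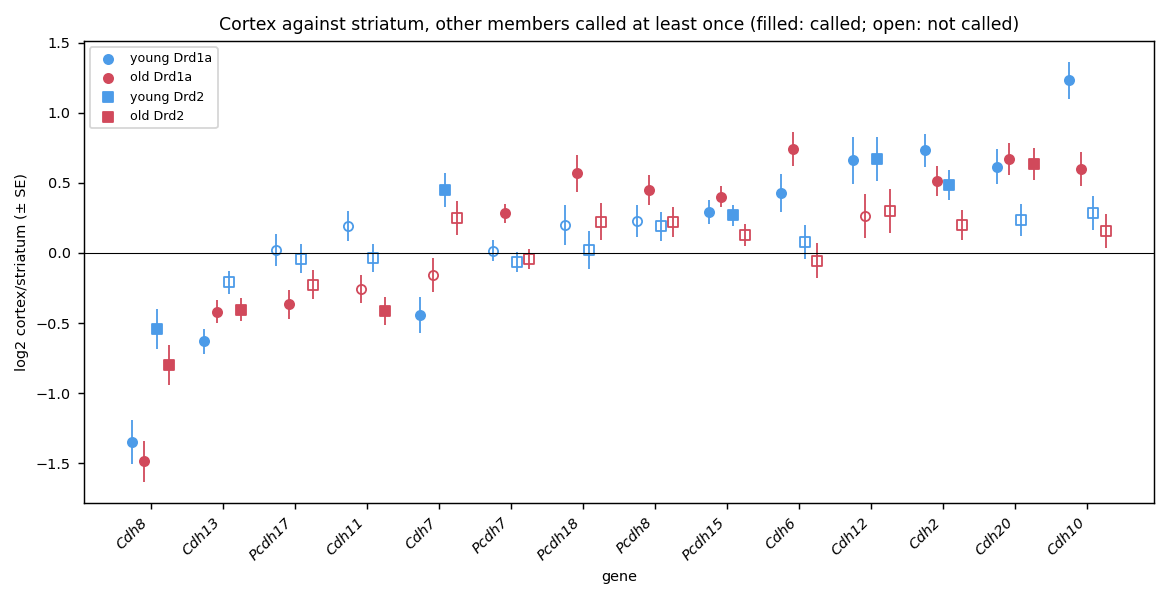
Cortex minus striatum log2 difference (± SE) for the other members called at least once in a region comparison, with circles for Drd1a and squares for Drd2 cells, blue for 6 weeks and red for 2 years, filled where called and open where not. Cdh8 lies below 0 in all 4 comparisons, down to -1.49, and Cdh10 reaches 1.23 in young Drd1a cells.

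In young Drd1a cells 9 of the 28 other members differed between regions, 6 higher and 3 lower in cortex, beside the 19% of all features given above. Besides Cdh8 and Cdh10 they were N-cadherin Cdh2 at 0.73, Cdh12 at 0.66, Cdh20 at 0.61, Cdh6 at 0.43, Pcdh15, a protocadherin of hair-cell tip links, at 0.29, Cdh7 at -0.44 and Cdh13, a cadherin held by a lipid anchor in place of a cytoplasmic tail, at -0.63. Calls lost on leaving out single arrays were those of Cdh12 (without striatal replicate 3, adjusted p = 0.059), Pcdh15 (without striatal replicate 1, 0.067), Cdh6 (2 of 7 arrays) and Cdh7 (3 of 7). In old Drd1a cells 11 of 28 differed, 8 higher and 3 lower, beside the 16.1% of all features called (8.8% higher and 7.32% lower). Beside Cdh8, Cdh20 and Cdh10, the named ones were Cdh6 at 0.74, Pcdh18 at 0.57, Cdh2 at 0.51, Pcdh8 at 0.45, Pcdh15 at 0.40, Cdh13 at -0.42 and Pcdh17 at -0.37, and their calls held whichever array was left out.

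In young Drd2 cells, beside the 7.58% of all features called (4.57% higher and 3.01% lower), 4 of 28 were higher in cortex and 1 lower: Cdh12 at 0.67, Cdh2 at 0.48, Cdh7 at 0.45, Pcdh15 at 0.27 and Cdh8. The calls of Pcdh15 and Cdh7 were lost without 5 and 2 of the 8 arrays, at adjusted p up to 0.11 and 0.10. In old Drd2 cells, beside the 11.3% called (6.31% higher and 5.04% lower), 1 was higher and 3 were lower: Cdh20, Cdh8, Cdh11 at -0.42 and Cdh13 at -0.40. Cdh8 was the member called in all 4 region comparisons, and Cdh2, Cdh13, Cdh20, Pcdhb14, Pcdhb18 and Pcdh15 were each called in 3.

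Markers differed between the regions as well. Cortical excitatory markers were higher in cortex for 7 of 7 in both Drd1a and 6 of 7 in both Drd2 comparisons. In the Drd1a comparisons 7 of 8 astrocyte markers were higher in cortex at both ages, with list means between 0.43 and 0.82 against -0.67 and -0.14 when young and between 0.62 and 1.07 against -0.32 and -0.15 when old. Markers of striatal projection neurons in general were lower for 6 of 6, and direct-pathway markers for 7 of 8 when young and 6 of 8 when old. Of 8 interneuron markers 4 were higher in cortical Drd1a cells at both ages, while 1 when young and 2 when old were lower. The median difference over the 8 was 0.94 when young and 0.72 when old. These markers split both ways at each age, so none is named singly. In the Drd2 comparisons 5 and 4 of these 8 were higher and 1 was lower at each age. In the Drd2 comparisons the general projection neuron markers were lower for 2 of 6 at both ages, and astrocyte markers were higher for 3 of 8 when young and 6 of 8 when old. Their part in the cadherin differences was not tested.

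Drd1a and Drd2 cells of young cortex differed in 6 of the 28 other members, 4 higher and 2 lower in Drd1a cells, beside the 12% of all features given above. Cdh10 stood at 0.48, 0.52, 0.46 and 0.83 against 0.00, -0.11, -0.20 and 0.17 (0.60 ± 0.12, adjusted p = 0.00068). Cdh8 stood at -1.36, -1.19, -0.84 and -0.71 against -0.53, -0.33, -0.08 and 0.00 (-0.79 ± 0.14, adjusted p = 0.00023). Neither pair overlapped. Cdh12 was higher by 0.57, Cdh2 by 0.47 and Cdh20 by 0.39, and Cdh7 was lower, at -0.39. The calls of Cdh12, Cdh20 and Cdh7 were lost without 1 (Drd2 replicate 2), 2 and 5 of the 8 arrays, at adjusted p up to 0.064, 0.12 and 0.14. In old cortex, beside the 6.48% of all features called, Cdh8 at -0.66 and Cdh13 at -0.44 were lower in Drd1a cells and held whichever array was left out. The marker differences of the cortical groups given above apply here too.

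In old striatum 5 of 28 differed between the cell types, 1 higher and 4 lower in Drd1a cells, beside the 2.81% of all features called there (1.63% higher and 1.18% lower). Cdh6 stood at -0.99, -0.60, -0.89 and -0.78 in Drd1a arrays and at 0.01, 0.24, 0.02 and 0.28 in Drd2 arrays. The groups lay far apart, and the difference was -0.95 ± 0.12 (adjusted p = 6.9e-06). Cdh13 at -0.42 and Cdh11 at -0.41 were lower, as was Pcdh10 at -0.28, and Cdh4, the retinal cadherin, was higher at 0.36 ± 0.08 (adjusted p = 0.0083). The calls of Pcdh10 and Cdh11 were lost without 5 and 2 of the 8 arrays, at adjusted p up to 0.14 and 0.081, while those of Cdh6, Cdh13 and Cdh4 held. Fitting only the 2 groups compared left 2 of the 7 member calls of this comparison, and those of Cdh4, Cdh11 and Pcdh10 were among the lost. Over all features the same fit called 227 in place of 459. Of 8 interneuron markers 4 were higher in the Drd1a arrays of old striatum, Pvalb by 1.08, Reln by 0.80, Npy by 0.79 and Gad2 by 0.35, with list means between -0.20 and 0.03 against -0.60 and -0.48, and their part in the differences was not tested. In young striatum 1 of 28 differed, beside the 3.05% of all features called: Cdh7 stood at 0.00, -0.23 and 0.11 in Drd1a arrays and at -0.90, -0.24, -0.45 and -0.59 in Drd2 arrays (0.50 ± 0.13, adjusted p = 0.026). It lost the call without 4 of the 7 arrays, at adjusted p up to 0.18. The call of Cdh7 was also lost under quantile normalization and with only the 2 groups compared in the fit. That last fit called 1 other member instead, lower in Drd1a cells.

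With age, the other members of striatal Drd2 cells also moved upward, in 5 of 28, beside the 5.7% of all features called (2.72% higher and 2.98% lower). Cdh2 went from -0.38, -0.65, -0.42 and -0.75 to -0.20, 0.15, -0.18 and 0.21 (0.55 ± 0.11, adjusted p = 0.0017). Cdh7 went from -0.90, -0.24, -0.45 and -0.59 to 0.01, -0.14, 0.03 and 0.09 (0.54 ± 0.12, adjusted p = 0.0052). Old arrays lay above young ones throughout for both genes. Cdh12 rose by 0.65, Cdh11 by 0.40 and Pcdh10 by 0.33, each with no overlap. The call of Cdh12 was lost without young replicate 3 (adjusted p = 0.053), that of Pcdh10 without old replicate 4 (0.25 on the log2 scale, under 1.2-fold) and that of Cdh11 without old or young replicate 4 (adjusted p up to 0.062), and all 3 were lost with only the 2 groups compared in the fit. The rise of direct-pathway and astrocyte markers in the same arrays is given above.

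In striatal Drd1a cells 2 of 28 changed with age, both downward, beside the 3.43% of all features called (1.58% higher and 1.85% lower). Cdh6 went from -0.25, -0.13 and -0.11 to -0.99, -0.60, -0.89 and -0.78 (-0.65 ± 0.13, adjusted p = 0.0057). Cdh13 went from 0.42, 0.39 and 0.42 to 0.12, 0.10, -0.11 and -0.09 (-0.41 ± 0.09, adjusted p = 0.009). Old arrays lay below young ones for both. The Cdh13 call was lost without young replicate 1, at an adjusted p of 0.052, and with only the 2 groups compared in the fit, and the Cdh6 call held in both. The rise of Penk in these arrays is given above.

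In striatal Drd2 cells Cdh13 stood at 0.12, 0.31, 0.17 and 0.08 when young and at 0.52, 0.50, 0.40 and 0.29 when old. This difference of 0.26 ± 0.08 was not called (adjusted p = 0.059). The age difference of Cdh13 in Drd1a cells minus that in Drd2 cells was -0.66 ± 0.12 (adjusted p = 0.021). This was 1 call among the 51 members, where 0.0734% of all features were called, and it was lost without any 1 of 6 of the 15 arrays, at adjusted p up to 0.082. It was also lost after centring arrays on their medians, with only the groups compared in the fit and without the arrays of high median. For Cdh6 the same contrast was -0.82 ± 0.18 (adjusted p = 0.066). The corresponding tests called 0 members in cortex, where 0.104% of all features were called. At an unadjusted p under 0.05, a looser level with no share of all features given, there were 10 members. The age-by-region tests called 0 members in Drd1a cells, where 0% of all features were called, and 0 in Drd2 cells, where 0.0184% were. There 8 and 7 members had an unadjusted p under 0.05, again with no share of all features given at that level.

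In cortex, Cdh7 was the member called with age in Drd1a cells, where 0.453% of all features were called. It went from -0.48, -0.68, -0.33 and -0.45 to 0.13, 0.04, -0.12 and 0.16 with no overlap (0.53 ± 0.12, adjusted p = 0.04), and lost the call without 6 of the 8 arrays, at adjusted p up to 0.15. The call was also lost under quantile normalization, after centring arrays on their medians, with only the 2 groups compared in the fit, with the replicate number as a fixed block and without the arrays of high median. In the same old arrays 2 of 8 oligodendrocyte markers were called higher, Trf by 1.38 and Ermn by 0.93, with list means between -0.54 and -0.45 when young and between -0.20 and 0.12 when old, and their part in the difference was not tested. In Drd2 cells Cdh20 went from 0.08, 0.15, -0.24 and 0.19 to 0.69, 0.52, 0.53 and 0.05 (0.40 ± 0.11, adjusted p = 0.041). Old replicate 4 lay among the young arrays, and the call was lost without 6 of the 8 arrays, at adjusted p up to 0.20.

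**Figure D5:**
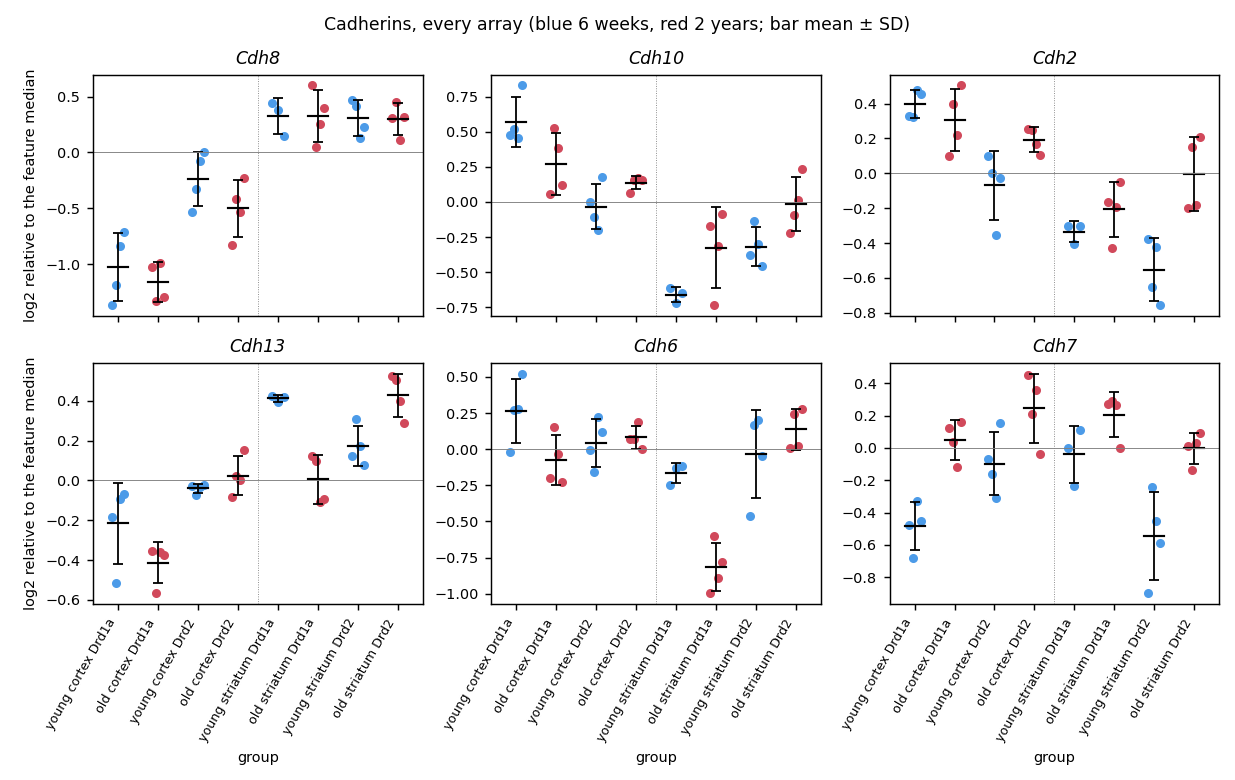
Every array as a point for 6 cadherins outside the clusters (blue 6 weeks, red 2 years; bars mean ± SD, n = 4 arrays a group and 3 in young striatum Drd1a), as log2 relative to the feature's median. The 4 old striatal Drd1a arrays of Cdh6 lie between -0.99 and -0.60, below the 4 old striatal Drd2 arrays between 0.01 and 0.28.

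Of 13 catenins and plakophilins, the cytoplasmic partners of cadherins, 0 were called by limma in any age comparison, and of 6 measured desmosomal cadherins 0 were. Of all features, 0.453% were called with age in cortical Drd1a, 3.63% in cortical Drd2, 3.43% in striatal Drd1a and 5.7% in striatal Drd2 cells. In lists this short, 0 calls lie near those shares. Among 9 measured giant cadherins, flamingo cadherins and calsyntenins, Clstn1, a calsyntenin, rose by 0.36 in cortical Drd2 and by 0.55 in striatal Drd2 cells. Of 16 measured regulators of the clustered genes, the cohesin subunits Rad21 and Smc1a were called: Rad21 rose by 0.39 in cortical Drd2 cells and Smc1a by 0.50 in striatal Drd1a cells. That was 1 of 16 in each of these comparisons and 0 in the others. Single calls in a list this short are not read as an excess over the shares above. Among 19 measured signalling and cleavage partners, Fyn, a tyrosine kinase, fell by 0.31 in cortical Drd2, 0.31 in striatal Drd1a and 0.42 in striatal Drd2 cells. Ptk2b, a kinase bound by protocadherins, rose by 0.36 in cortical Drd1a and by 0.27 in cortical Drd2 cells. In striatal Drd2 cells Ptprm, a receptor phosphatase, rose by 0.45 and Abi1, a part of the WAVE actin complex, fell by 0.35. Unlike the member calls, these calls were not followed through the fits without single arrays.

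Of the 28 other members, 12 were never called: Cdh1, Cdh3, Cdh5, Cdh15, Cdh16, Cdh17, Cdh22, Cdh23, Cdh26, Pcdh1, Pcdh12 and Pcdh20. Over the 31 arrays, the correlation of their deviations from group means with those of the array medians lay between 0.47 and 0.96, with a median of 0.81. For the other members called at least once the median was 0.00, and for the clustered features it was 0.07 where never called and -0.18 where called. These correlations share the same 31 arrays and describe the arrays only.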

How the data were processed

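Ribosome-bound RNA from 31 samples was measured on mouse exon arrays, 1 array a sample. The deposited log2 values were made by the authors with RMA, and the genome build named is mm8, per the submitters' processing notes. The deposited log2 values are centred per feature (median 0 within 1e-06 for 16341 of 16345 features), and no label says who centred them. No signal over background was given, so no filter on dim features was applied. Of the features, 14793 carry 1 gene symbol, 814 several and 738 none in the platform annotation, whose symbols can be old, and all 51 member features matched RefSeq. There were 3 malformed cells and 1 empty cell, set to missing, none in a member.

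A linear model with 1 mean per group (limma 3.58.1 in R 4.3.3) was fitted to all 31 arrays (23 residual degrees of freedom), moderated with eBayes, and p-values were adjusted by Benjamini-Hochberg over all 16345 features in each of 16 comparisons. The scripts were tested on simulated data. Members named are those called in an age, cell-type or interaction comparison, and in each region comparison the 6 clustered and 10 other called members that differed most. Of the pathway genes, up to 3 called in each direction are named. Alternatives were quantile normalization, centring arrays on their medians, fitting only the groups compared and the replicate number as a fixed block. A random block joined cortex and striatum arrays of 1 number within an age and cell type, with a correlation of -0.06 within blocks. Others left out arrays with a median over 0.05, used no fold threshold or a 1.5-fold threshold, or left out each array in turn. The members and lists were chosen with earlier results of these data known.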

Additional observations from a re-analysis of the deposited data

Results flagged for a closer look

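In 10 of 224 sets of 1 named member in 1 group of 4 arrays (4.46%), 1 array stood apart from the other 3 beyond Dixon's critical value, and chance gives about 1 in 20. In old striatum, Cdh20 in Drd2 replicate 4 was at -0.41 against -0.14 to -0.09 in the others, Cdh7 in Drd1a replicate 4 at 0 against 0.26 to 0.29, and Cdh4 in Drd1a replicate 2 at 0.26 against 0.08 to 0.10. In old cortical Drd1a cells, Pcdhb6 in replicate 4 was at -0.34 against -0.16 to -0.14, Pcdhb22 in replicate 1 at -0.67 against -0.30 to -0.23, and Cdh13 in replicate 2 at -0.57 against -0.37 to -0.35. In young cortex, Cdh10 in Drd1a replicate 4 was at 0.83 against 0.46 to 0.52. In young cortical Drd2 cells, Cdh4 in replicate 2 was at 0.06 against -0.01 to 0, Pcdh7 in replicate 4 at -0.053 against 0.013 to 0.023, and Cdh11 in replicate 1 at -0.24 against 0.02 to 0.07.

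The interaction term of the limma fit called the age difference of Cdh13 in striatum different between the cell types, at -0.66 in Drd1a minus Drd2 cells (adjusted p = 0.021). The call was lost without any 1 of 6 of the 15 arrays, after centring arrays on their medians, with only the groups compared in the fit and without the arrays of high median.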

How the results depend on the processing

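None of the 97 calls of members reversed under the alternatives run. Quantile normalization kept 82, centring arrays on their medians 80, fitting only the groups compared 71 and the replicate number as a fixed block 92. The random block of cortex and striatum arrays with 1 number kept 95, and its correlation of -0.06 left the fit little changed. Leaving out the 6 arrays with high medians kept 78 and a 1.5-fold threshold 50, and 56 held under every alternative but the last. Counts of members called with age moved as follows. In cortical Drd1a cells the 1 call became 0 under quantile normalization, centring, only the groups compared, the fixed block, without the high-median arrays and at 1.5-fold. In cortical Drd2 cells 4 became 0 with only the groups compared, 1 without the high-median arrays and 2 at 1.5-fold. In striatal Drd1a cells 6 became 3 with only the groups compared, and in striatal Drd2 cells 12 became 7 with only the groups compared and 6 at 1.5-fold. Calls over all features fell in the same fits. With only the groups compared they went from 74 to 21, 594 to 55, 561 to 73 and 932 to 469, in the same order of cells. At 1.5-fold they were 31, 131, 110 and 207. Without the high-median arrays they were 35 in cortical Drd1a and 331 in cortical Drd2 cells. Between cell types, young cortex went from 8 to 4 at 1.5-fold, young striatum from 1 to 0 under quantile normalization and at 1.5-fold and to 2 with the fixed block, and old striatum from 7 to 4 with centring, 2 with only the groups compared and 1 at 1.5-fold. In young striatum the count stayed at 1 with only the groups compared, but the call was of another member, lower in Drd1a cells. Over all features, young cortex went from 1956 to 694 at 1.5-fold. Young striatum went from 499 to 337 under quantile normalization, 201 at 1.5-fold and 475 with the fixed block. Old striatum went from 459 to 394 with centring, 227 with only the groups compared and 189 at 1.5-fold. Between regions at 1.5-fold, young Drd1a went from 16 to 10, young Drd2 from 6 to 1, old Drd1a from 19 to 11 and old Drd2 from 8 to 4. Over all features the first 3 of these went from 3111 to 1208, 1239 to 357 and 2635 to 967. The striatal age by cell type count of 1 became 0 with centring, with only the groups compared and without the high-median arrays, and 3 with the fixed block. The causes were not tested.

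Splits of higher and lower calls moved with scaling. With age they were 2 and 4 in striatal Drd1a cells (2 and 2 after quantile normalization, 3 and 3 after centring) and 3 and 1 in cortical Drd2 cells (3 and 0 after centring). Between regions they were 6 and 10 in young Drd1a cells (7 and 6, 7 and 7), 5 and 1 in young Drd2 cells (3 and 2, 5 and 0) and 1 and 7 in old Drd2 cells (2 and 5 after centring), and between cell types 1 and 6 in old striatum (1 and 3 after centring).

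Leaving out 1 array at a time kept 9 of 23 age calls, 14 of 24 cell-type calls, 32 of 49 region calls and 0 of 1 interaction call each time. The counts ran with age from 0 to 1, 0 to 5, 3 to 7 and 9 to 13 in cortical Drd1a, cortical Drd2, striatal Drd1a and striatal Drd2 cells. Between cell types they ran from 6 to 10 and 0 to 2 in young and 7 to 11 and 4 to 10 in old cortex and striatum, and between regions from 11 to 15 and 3 to 6 in young and 18 to 20 and 5 to 8 in old Drd1a and Drd2 cells, and for the striatal interaction from 0 to 1. Deviations of same-numbered arrays correlated above 0.1 in 3 of 15 pairs of cortex and striatum, 3 of 15 of young and old and 7 of 15 of Drd1a and Drd2 (up to 0.35), and 5 of 15 cortex arrays correlated best with the striatal array of their own number. Not every pair passed 0.1. These correlations cannot settle whether same-numbered samples came from the same mice, and the labels do not say. The fixed block is therefore described by the replicate number only. Centred values give no signal over background, which leaves dim features unmarked.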
